A study of Homo sapiens with 16 samples.

Results

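The phagocyte NADPH oxidase is the enzyme with which monocytes, macrophages and neutrophils make superoxide. The expression of 7 genes was followed: CYBB, CYBA, NCF1, NCF4 and RAC2, which encode parts of this oxidase, and NCF1B and NCF1C, pseudogene copies of NCF1. They were chosen by gene symbol from the 60623 genes counted in each library, and the counts of NCF1, NCF1B and NCF1C were also added up as an NCF1 family sum. RNA-Seq was performed in MUTZ-3, an AML cell line with inv(3), in which a displaced enhancer drives the oncogene EVI1 (listed as MECOM). In the PARPi experiment, untreated cells were collected at 0 h, and treated cells after 12, 24 and 48 h with olaparib at 10 µM, with talazoparib at 1 µM or with DMSO alone. Olaparib and talazoparib both inhibit PARP enzymes. In the knockdown experiment, cells carried a lentiviral pLKO.1 vector with a non-targeting control shRNA (NTC), shEVI1-2531 or shEVI1-2532, were selected with puromycin, and were collected on day 3 and day 6. All cells grew with GM-CSF and with medium conditioned by the bladder cancer line 5637. There was 1 library for each of the 16 conditions and hence no replicate, and all results describe 1 cell line.

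The oxidase is assembled on demand. CYBB (gp91phox), which carries the electrons across the membrane, and CYBA (p22phox), which stabilizes it, form the membrane-bound flavocytochrome. NCF1 (p47phox) and NCF4 (p40phox) wait in the cytosol until phosphorylation of NCF1 allows the cytosolic parts to dock, and the GTPase RAC2 joins them to switch on electron flow. Inherited loss of CYBB, CYBA, NCF1 or NCF4 causes chronic granulomatous disease. In blood formation, these genes are known to be switched on as myeloid precursors mature, with PU.1 (SPI1) among the factors that act on their promoters.

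NCF1 has near-identical copies on the same chromosome that read counting can hardly separate. In the coordinates of GRCh38, NCF1 (ENSG00000158517) lies on chromosome 7 from 74773962 to 74789376 on the plus strand, NCF1B (ENSG00000182487) from 73220624 to 73235945 on the plus strand, and NCF1C (ENSG00000165178) from 75156639 to 75172044 on the minus strand. GENCODE 29 annotates NCF1B as a transcribed unprocessed pseudogene, NCF1C as an unprocessed pseudogene and the other members as protein coding. Over 1394 aligned bases, the transcripts NCF1-201 and NCF1C-201 differed at 8 positions (99.4% identity), and NCF1C-201 lacked 2 further bases. The best known of these differences is a repeated GT early in the coding sequence, which is absent from most pseudogene transcripts and shifts their reading frame. It is shown in the next lines in 30-base windows of the GENCODE 29 transcripts, 5′ to 3′, with the repeat in capitals where both GT units are present.
NCF1-201: acccagccagcactatGTGTacatgttcct
NCF1C-201: acccagccagcactatgtacatgttcctgg
NCF1B-203: acccagccagcactatGTGTacatgttcct
The repeat was complete in NCF1-201 and in NCF1B-203, while NCF1C-201, NCF1B-201 and NCF1B-202 held a single GT. Of the 1297 stretches of 100 bases, the read length, in NCF1-201, 64.5% also occurred without mismatch in an NCF1B or NCF1C transcript (50.5% in NCF1B and 43.5% in NCF1C). How the counting treated reads that fit several places is not stated, so the single counts of the copies are uncertain and the family sum is given beside them.

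The other members stand apart in sequence. CYBB (ENSG00000165168) lies on chromosome X from 37780011 to 37813461 on the plus strand, CYBA (ENSG00000051523) on chromosome 16 from 88643289 to 88651054 on the minus strand, NCF4 (ENSG00000100365) on chromosome 22 from 36860988 to 36878017 on the plus strand, and RAC2 (ENSG00000128340) on chromosome 22 from 37225270 to 37244448 on the minus strand. NCF4 overlaps the antisense gene NCF4-AS1, which had at most 27 counts in a library. CYBB overlaps AF241726.2, which had 0 counts in every library.

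Promoters in RefSeq (GRCh38.p14) were matched by symbol for 3 of the 7 members: NCF1, CYBB and CYBA. They are shown for CYBB and NCF1, whose changes are the main subject of the results, as the 250 bases before the RefSeq gene start, with TTCCTC in capitals. For both genes the RefSeq start lies downstream of the start given with the loci, so the last bases of each window lie inside that annotated gene. This is GAGGAA, the core bound by PU.1, read from the opposite strand.
CYBB, chrX:37779809-37780058, plus strand: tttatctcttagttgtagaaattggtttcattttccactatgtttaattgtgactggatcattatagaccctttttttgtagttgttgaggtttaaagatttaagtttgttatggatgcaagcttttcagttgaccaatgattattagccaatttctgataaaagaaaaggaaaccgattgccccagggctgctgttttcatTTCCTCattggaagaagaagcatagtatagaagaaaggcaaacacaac
NCF1, chr7:74773761-74774010, plus strand: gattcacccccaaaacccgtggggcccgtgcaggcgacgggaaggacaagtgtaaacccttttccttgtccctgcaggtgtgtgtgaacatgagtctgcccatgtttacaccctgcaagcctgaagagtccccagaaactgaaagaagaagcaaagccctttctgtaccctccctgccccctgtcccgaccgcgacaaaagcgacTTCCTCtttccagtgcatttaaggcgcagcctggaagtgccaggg
The match began 48 bases before the RefSeq start of CYBB and 45 bases before that of NCF1, and thus at or just inside the gene starts given with the loci. Neither strand of the CYBA window held these letters. Over both strands, 23.6% of 35116 promoters of this length held GAGGAA, so a match in a window describes its letters and not a bound site.

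Depth ranged from 55999673 to 72681943 counts with PARPi and from 95523038 to 120716213 after knockdown. Levels are given as CPM, the counts scaled to library totals that were adjusted by edgeR's TMM factors. All members were far above the 3-count floor of 0.0249 to 0.0536 CPM in all libraries, the lowest being NCF1B with 444 counts, and all 7 passed the filter on low counts. PTPRC, CD33, ANPEP, SPI1, CEBPA and MECOM, listed for the myeloid identity of the cells, were above the floor in all 16 libraries. Being above the floor does not by itself show identity, since 5 of 5 T cell markers were above it in all libraries as well. The summed levels differed, with 1237 to 2635 CPM for the myeloid list and 3.65 to 16.3 CPM for the T cell markers. Because these are bulk samples, a higher level in each cell and a larger share of cells that express a gene cannot be told apart.

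CYBB, the electron-carrying subunit, was higher with both PARPi in all 3 pairs of libraries, and more so with time. Untreated cells had 223.6 CPM. In DMSO, CYBB had 298.4 CPM at 12 h, 258.3 at 24 h and 228.2 at 48 h. With olaparib it had 346.5, 566.1 and 778.5 CPM, and with talazoparib 345.5, 693.2 and 1091 CPM at the same times. All 6 inhibitor libraries lay above all 3 DMSO libraries and the untreated library, and the share of all genes that separate so was not counted. At 12 h the log2 ratio to DMSO was 0.22 (95% interval 0.19 to 0.24) with olaparib and 0.21 (0.19 to 0.24) with talazoparib. By 48 h it had reached 1.77 (1.74 to 1.80), which is 3.41-fold, and 2.26 (2.23 to 2.28), which is 4.78-fold. These intervals are exact binomial and cover counting error only, and no p-value belongs to a ratio of 1 library to another.

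CYBA, the partner of CYBB in the membrane, followed late. It had 328.4 CPM in untreated cells and 289.3, 431.9 and 301.2 CPM in DMSO at 12, 24 and 48 h. With olaparib it had 328.1, 397.0 and 682.2 CPM, and with talazoparib 290.2, 511.4 and 880.3 CPM. Talazoparib at 24 h and both inhibitors at 48 h lay above all controls, while the other 3 inhibitor libraries lay within the range of DMSO, which was highest at 24 h. Its log2 ratios at 48 h were 1.18 (1.15 to 1.20) with olaparib and 1.55 (1.52 to 1.57) with talazoparib. At 24 h, the ratio was −0.12 (−0.14 to −0.10) with olaparib and 0.24 (0.22 to 0.27) with talazoparib.

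For the NCF1 family, the picture was different, because the controls themselves moved. The family sum had 120.2 CPM in untreated cells, 204.1 CPM in DMSO at 12 h, 107.2 at 24 h and 62.05 at 48 h. With olaparib it stayed between 353.5 and 413.5 CPM (381.7, 353.5 and 413.5), and with talazoparib it had 327.3, 362.1 and 678.4 CPM. The inhibitor libraries were thus above all controls at every time, but with olaparib the growing ratio to DMSO came with a falling control and hardly with a rising level. The log2 ratio to DMSO of the same hour was 0.90 (0.87 to 0.93), 1.72 (1.69 to 1.76) and 2.74 (2.69 to 2.79) with olaparib, and 0.68 (0.65 to 0.71), 1.76 (1.72 to 1.79) and 3.45 (3.40 to 3.50) with talazoparib. Against the mean of the 3 DMSO libraries, in contrast, the olaparib ratios were 1.62, 1.51 and 1.73 and the talazoparib ratios 1.39, 1.54 and 2.45. Between DMSO at 12 h and at 48 h, the sum fell by 1.72 on the log2 scale, while CYBB fell by 0.39, RAC2 by 0.22 and NCF4 by 0.21, and CYBA differed by 0.06. Each of these controls is 1 library.

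The single copies moved with the sum. NCF1 had 141.2, 73.60 and 44.44 CPM in DMSO, 257.7, 237.1 and 270.7 CPM with olaparib and 229.7, 251.2 and 465.5 CPM with talazoparib. NCF1B had 6.76 to 26.2 CPM in DMSO, 51.7 to 60.3 CPM with olaparib and 41.6 to 90.2 CPM with talazoparib. The corresponding ranges of NCF1C were 10.8 to 36.7 CPM, 64.8 to 82.5 CPM and 56.0 to 122.7 CPM. In none of the 3 copies, which are not independent of each other in counting, did DMSO and inhibitor libraries overlap. The share of all genes whose groups stay apart like this was not counted, for PARPi or for the knockdown.

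NCF4 and RAC2 changed less. NCF4, the adaptor that binds phosphoinositides at the phagosome, had 317.7, 259.8 and 275.5 CPM in DMSO, 336.6, 340.8 and 534.4 CPM with olaparib and 328.7, 397.1 and 684.8 CPM with talazoparib. RAC2, the blood-cell Rac GTPase, had 350.1, 287.7 and 299.5 CPM in DMSO, 356.8, 360.1 and 479.7 CPM with olaparib and 403.7, 436.7 and 704.3 CPM with talazoparib. All inhibitor libraries lay above all DMSO libraries for both genes, by a narrow margin at 12 h, and again no share of all genes was counted. The untreated library, with 317.2 CPM of NCF4 and 401.5 CPM of RAC2, lay above 2 of the DMSO libraries for NCF4 and above all 3 for RAC2. For RAC2 it also lay above olaparib at 12 h (356.8 CPM) and at 24 h (360.1 CPM). At 48 h, the log2 ratios of NCF4 were 0.96 (0.93 to 0.98) and 1.31 (1.29 to 1.34), and those of RAC2 0.68 (0.65 to 0.71) and 1.23 (1.21 to 1.26), with olaparib and talazoparib, respectively.

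**Figure D1:**
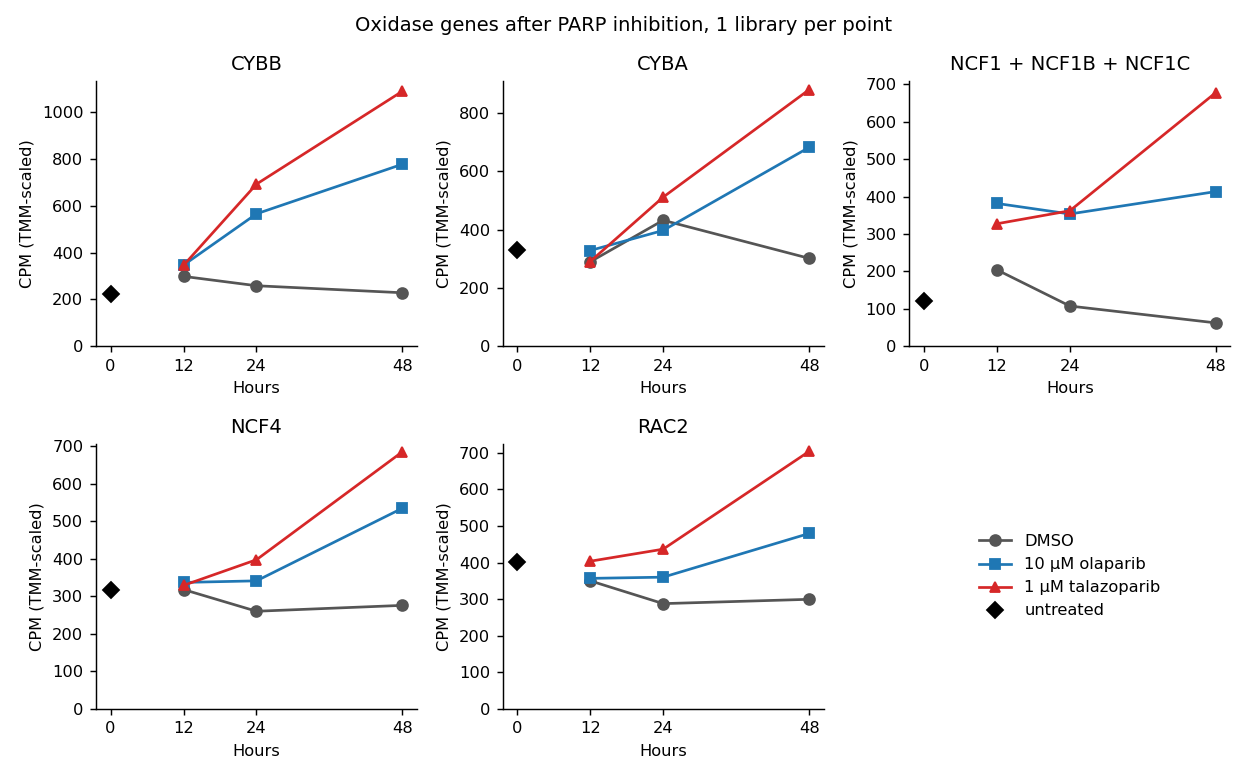
Levels of CYBB, CYBA, the NCF1 family sum, NCF4 and RAC2 in the 10 PARPi libraries, as TMM-scaled CPM on a linear axis from 0 against hours of treatment. Each point is 1 library, lines join the libraries of a treatment, and there are no error bars because no condition has a replicate. CYBB with talazoparib climbs to 1091 CPM at 48 h, while the NCF1 family sum in DMSO falls from 204.1 to 62.05 CPM.

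Averaged over 12, 24 and 48 h and both inhibitors, 1 of the 7 members passed the test and 6 did not. The test was the quasi-likelihood test of edgeR, adjusted after Benjamini-Hochberg over all 17218 genes, of which 3.99% passed and 2.93% rose. NCF1 rose by 1.75 on the log2 scale (SE 0.39, adjusted p = 0.0485 in edgeR). The family sum, tested in place of its copies, rose by 1.78 (0.40, adjusted p = 0.0496 in edgeR). Several members missed the threshold narrowly, in a test where 6070 of the 17218 genes had an unadjusted p under 0.05. NCF1B had 1.93 (0.44, adjusted p = 0.0509 in edgeR), NCF1C 1.77 (0.41, 0.0509), CYBB 1.11 (0.30, 0.058), RAC2 0.50 (0.16, 0.075) and NCF4 0.55 (0.19, 0.0847). CYBA had 0.47 (0.25, adjusted p = 0.208 in edgeR). With an hour or a library left out, the value of CYBB ran from 0.71 (without the 48 h libraries) to 1.63 (without DMSO at 12 h), and that of CYBA from 0.08 (without the 48 h libraries or without DMSO at 48 h) to 0.69 (without DMSO at 24 h). The error of this average holds the growth of the effect with time, and 4 residual degrees of freedom remained. The count hung on single libraries: it was 0 without olaparib at 12 h, DMSO at 24 h, olaparib at 24 h, talazoparib at 24 h or olaparib at 48 h, it was 3 without DMSO at 48 h or talazoparib at 48 h, and it was 6 without DMSO at 12 h or talazoparib at 12 h. The share of all genes that passed in each of these fits is not given here, so these counts describe only the dependence on single libraries.

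Olaparib on its own gave a call for 0 of the 7 members in edgeR, against 0.621% of all genes, although 4 (NCF1, NCF1B, NCF1C and CYBB) had an unadjusted p under 0.05, as did 3200 of the 17218 genes. DESeq2 called 3 members, and 3.9% of all genes. For talazoparib, 1 of 7 members (NCF1, 1.91 ± 0.43 SE, adjusted p = 0.0499 in edgeR) passed, against 4.01% of all genes (2.83% higher). Set side by side at their unequal doses, talazoparib had the higher fitted value for all 7 members, but 0 of them differed between the inhibitors, as did 0% of all genes (355 genes had an unadjusted p under 0.05, and no member did, and DESeq2 called 0 members). Without talazoparib at 48 h, the difference was below 0 for 6 of the 7 members, RAC2 being the exception, and it was −0.33 for the family sum. The 95% interval of the log2 difference ran from −0.45 to 1.03 for CYBB, from −0.69 to 1.20 for the NCF1 family sum and from −0.06 to 0.76 for RAC2, so differences of these sizes cannot be told from none here.

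The change of the effect with time was the clearer result. A slope was fitted as the change of the log2 ratio to DMSO for each doubling of the hours, and both slopes were tested together. All 7 members had a positive mean slope and passed, against 16.5% of all genes (8.51% with a positive and 8.03% with a negative slope). The slope was 1.15 (SE 0.14, adjusted p = 1.52e-16 in edgeR) for the NCF1 family sum, 0.90 (0.13, 1.57e-09) for CYBB, 0.64 (0.14, 7.66e-05) for CYBA, 0.53 (0.13, 0.00154) for NCF4 and 0.42 (0.13, 0.0224) for RAC2. Among the copies, NCF1 had 1.11 (0.13, adjusted p = 1.06e-15 in edgeR), NCF1C 1.21 (0.14, 1.54e-17) and NCF1B 1.30 (0.14, 1.63e-19). This fit left 2 residual degrees of freedom, and its error came almost wholly from the spread shared by all genes, so these p-values assume that each member varies no more than genes of its level do in general.

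Single controls decided part of this count as well. Without DMSO at 12 h, 4 members passed (NCF1, NCF1B, NCF1C and CYBA), and without DMSO at 48 h another set of 4 (NCF1, NCF1B, NCF1C and CYBB). For CYBA, the slope was −0.03 (adjusted p = 0.947 in edgeR) without DMSO at 48 h. The 48 h libraries then had no control of their hour, so the mean slope came from 12 and 24 h alone. CYBA itself had 682.2 CPM with olaparib and 880.3 CPM with talazoparib at 48 h, against at most 431.9 CPM in DMSO. The slope of the family sum stayed between 0.95 and 1.35 with any 1 of the 9 libraries left out, and its largest adjusted p in edgeR was 0.00602.

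**Figure D2:**
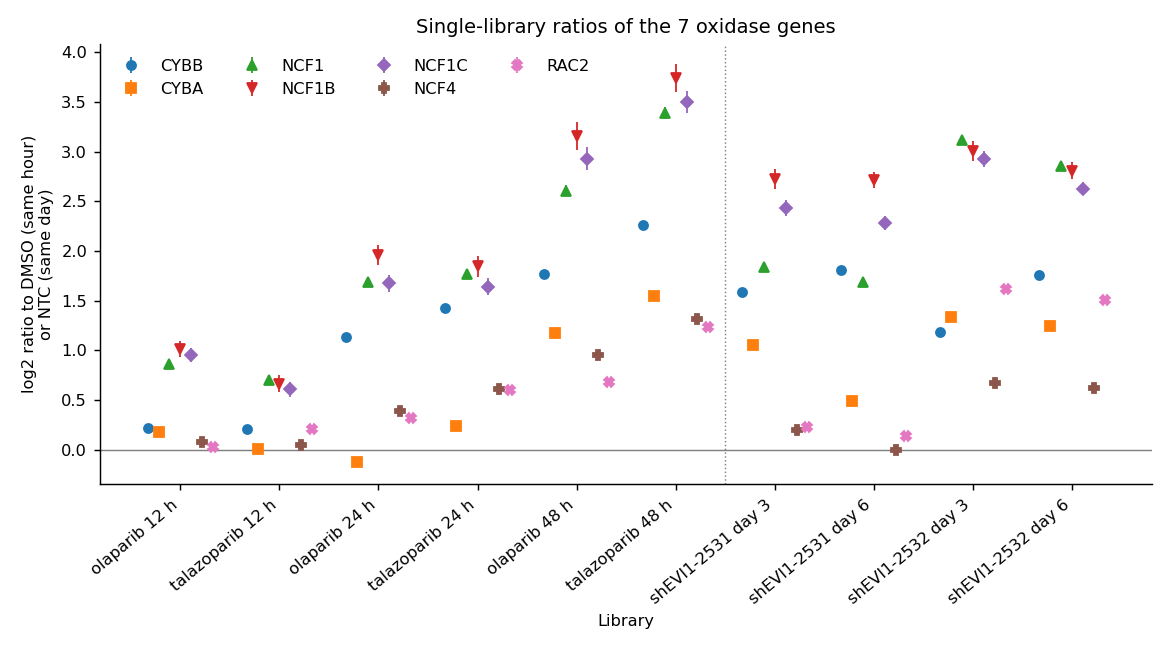
Log2 ratio of each of the 7 members to DMSO of the same hour (left of the dotted line) or to NTC of the same day (right), for the 6 inhibitor and 4 shRNA libraries, with exact binomial 95% intervals that cover counting error only and are often smaller than the symbols. The NCF1 copies are highest at 48 h, between 2.61 and 3.74, and NCF4 and RAC2 stay near 0 with shEVI1-2531.

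The knockdown was measured first in its target. The files of the shEVI1-2531 libraries carry another shRNA number in their names than the labels do, and the labels were followed. MECOM had 40.56 CPM with NTC, 13.16 CPM with shEVI1-2531 and 5.141 CPM with shEVI1-2532 on day 3, and 37.22, 17.52 and 4.314 CPM on day 6. It fell by 1.34 on the log2 scale with shEVI1-2531 and by 3.04 with shEVI1-2532, and the libraries of both shRNAs lay below both controls. The shRNAs thus gave unequal knockdown, and each was its own group in the tests. With PARPi, MECOM at 48 h was at 61.67 CPM in DMSO, 23.35 with olaparib and 10.05 with talazoparib.

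After knockdown, the NCF1 family had the largest change of all members. Its sum was 68.12 CPM with NTC on day 3 and 91.49 on day 6. It was 287.1 and 356.4 CPM with shEVI1-2531, and 574.4 and 644.2 CPM with shEVI1-2532. The groups were far apart and in the same order on both days. On day 3 the sum was 8.43-fold above NTC with shEVI1-2532, a log2 ratio of 3.08 (3.04 to 3.11), and 4.22-fold with shEVI1-2531, a log2 ratio of 2.08 (2.04 to 2.11).

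CYBB did not follow the order of the knockdown. It had 185.9 and 175.7 CPM with NTC on day 3 and day 6, 557.9 and 614.3 CPM with shEVI1-2531, and 421.6 and 596.2 CPM with shEVI1-2532. Both shRNAs lay clearly above NTC, and their own ranges overlapped. CYBA, in contrast, had 317.6 and 320.6 CPM with NTC, 660.2 and 449.7 CPM with shEVI1-2531, and 800.5 and 759.2 CPM with shEVI1-2532. For CYBA the 3 groups did not overlap, and the share of all genes that separate so was not counted. The ratio of CYBA to NTC with shEVI1-2531 was larger on day 3 (log2 1.06) than on day 6 (0.49).

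RAC2 and NCF4 rose with 1 of the shRNAs. RAC2 had 282.1 and 404.0 CPM with NTC, 330.0 and 445.6 CPM with shEVI1-2531, and 865.0 and 1145 CPM with shEVI1-2532. NCF4 had 273.4 and 298.0 CPM with NTC, 314.8 and 298.3 CPM with shEVI1-2531, and 434.6 and 458.1 CPM with shEVI1-2532. With shEVI1-2531, RAC2 overlapped with NTC across the days, since NTC itself was higher by 0.52 on the log2 scale on day 6, and NCF4 matched NTC on day 6 with a log2 ratio of 0.00 (−0.02 to 0.02).

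**Figure D3:**
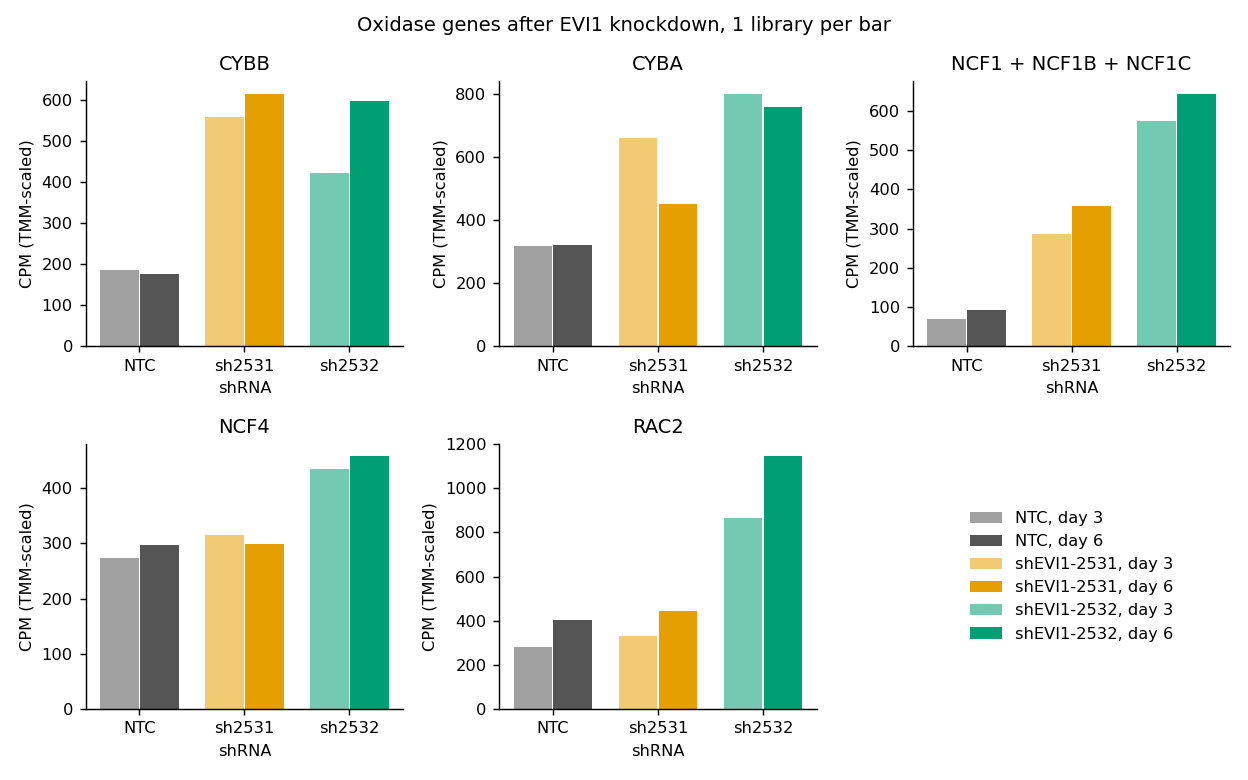
Levels of CYBB, CYBA, the NCF1 family sum, NCF4 and RAC2 in the 6 knockdown libraries, as TMM-scaled CPM on axes from 0. Each bar is 1 library, day 3 in pale and day 6 in full colour. RAC2 reaches 865.0 and 1145 CPM with shEVI1-2532, against 330.0 and 445.6 CPM with shEVI1-2531, while CYBB is at a similar height with both.

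With shEVI1-2532, all 7 members rose, against 41.1% of 18606 genes that passed in either direction (21.2% rose and 19.9% fell). NCF1 rose by 2.99 (SE 0.14, adjusted p = 1.22e-07 in edgeR), the family sum by 2.95 (0.14, 1.31e-07), RAC2 by 1.56 (0.13, 2.49e-06), CYBB by 1.47 (0.15, 1.36e-05), CYBA by 1.29 (0.15, 4.04e-05) and NCF4 by 0.64 (0.13, 0.00155). With shEVI1-2531, 5 of 7 members rose, against 17.4% of all genes in either direction (9.49% rose and 7.9% fell). NCF1B rose by 2.72 (SE 0.16, adjusted p = 1.9e-06 in edgeR), NCF1C by 2.35 (0.15, 2.44e-06), NCF1 by 1.76 (0.13, 1.11e-05), CYBB by 1.69 (0.15, 3.57e-05) and CYBA by 0.78 (0.15, 0.00421). The family sum rose by 2.02 (SE 0.13, adjusted p = 4.16e-06 in edgeR). RAC2 had 0.18 (95% interval −0.08 to 0.45, adjusted p = 0.342 in edgeR) and NCF4 0.10 (−0.17 to 0.38, adjusted p = 0.625) with shEVI1-2531. The 2 days stand in for replicates in this fit, which left 2 residual degrees of freedom. Day is a term of the fit, so the p-values measure how far the differences between groups varied from day to day. They also lean on the spread shared by all genes, with 12.1 degrees of freedom in total. As far as the labels tell, both days belong to 1 transduction series.

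The difference between the shRNAs was tested directly. It was in favor of shEVI1-2532 for 5 of 7 members, against 24.2% of all genes that differed and 12.2% that were higher with shEVI1-2532. RAC2 was higher by 1.38 (SE 0.13, adjusted p = 2.99e-05 in edgeR), NCF1 by 1.23 (0.13, 7.22e-05), NCF4 by 0.54 (0.13, 0.00845), CYBA by 0.51 (0.15, 0.0284) and NCF1C by 0.43 (0.14, 0.0426). The family sum was higher by 0.93 (SE 0.13, adjusted p = 0.000367 in edgeR). For CYBB the difference was −0.22 (95% interval −0.54 to 0.11, adjusted p = 0.324 in edgeR) and for NCF1B 0.19 (−0.12 to 0.50, adjusted p = 0.376). The value of CYBB hung on the days of shEVI1-2532: it was −0.46 (adjusted p = 0.0486 in edgeR) without day 6 of that shRNA and 0.01 (adjusted p = 0.982) without day 3. Without shEVI1-2531 on day 6, 2 members passed, RAC2 and NCF1.

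When both shRNAs were taken as 1 group, so that the gap between them entered the error, 3 of 7 members rose, against 1.66% of all genes that passed (0.849% rose and 0.806% fell). They were NCF1B (2.82, SE 0.19, adjusted p = 0.014 in edgeR), NCF1C (2.58, 0.24, 0.0155) and CYBB (1.59, 0.20, 0.0304). The family sum rose by 2.56 (SE 0.39, adjusted p = 0.0433 in edgeR). NCF1 had 2.50 (0.49, 0.058), CYBA 1.06 (0.25, 0.0828), RAC2 1.03 (0.50, 0.262) and NCF4 0.40 (0.23, 0.34). Without NTC of day 3 or without NTC of day 6, 0 members passed.

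**Figure D4:**
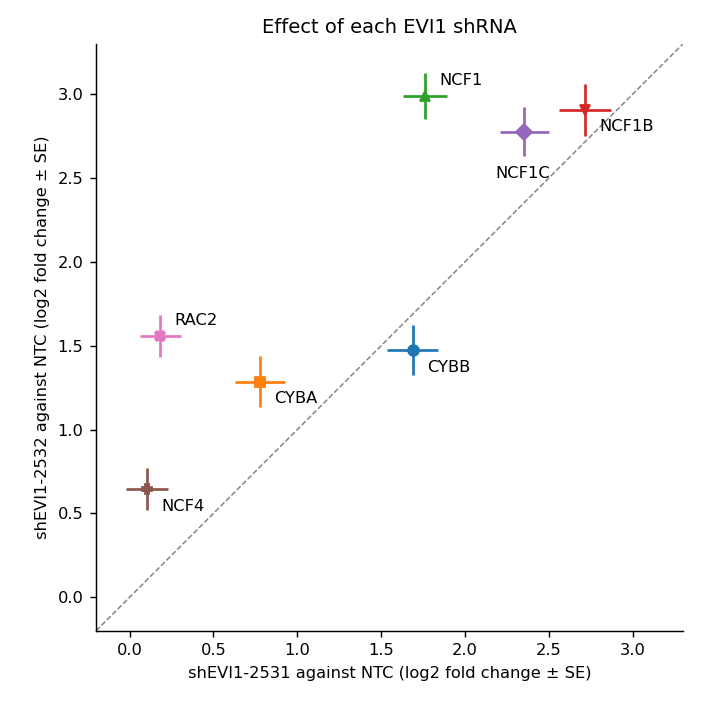
Fitted log2 fold change against NTC with shEVI1-2532 (vertical axis) and with shEVI1-2531 (horizontal axis) for the 7 members, with standard errors from edgeR as bars. The dashed line marks equal effects. RAC2, NCF1, NCF4, CYBA and NCF1C lie above it and passed the test of the difference, while CYBB (1.69 and 1.47) and NCF1B (2.72 and 2.91) lie near it and did not.

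The division of family counts among the copies shifted most with shEVI1-2531. In the 10 PARPi libraries, NCF1 took 65.5% to 71.6% of the family counts, NCF1C 17.1% to 20.0% and NCF1B 10.9% to 14.6%. With olaparib the share of NCF1 was below DMSO at 12, 24 and 48 h, most at 48 h (65.5% against 71.6%). With talazoparib it was above DMSO at 12 and 24 h and below it at 48 h (68.6%). The share of NCF1 with NTC was 72.2% (exact binomial 95% interval 71.2% to 73.1%) on day 3 and 70.8% (70.0% to 71.7%) on day 6. With shEVI1-2532 it was 74.3% (73.9% to 74.7%) and 73.1% (72.7% to 73.4%). With shEVI1-2531 it was 61.2% (60.6% to 61.8%) and 58.7% (58.2% to 59.1%), below all other libraries on both days. In the same libraries NCF1B took 17.4% and 19.2% and NCF1C 21.4% and 22.1%, above all others. The intervals cover counting error only, and the shares describe how reads were assigned among near-identical copies.

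**Figure D5:**
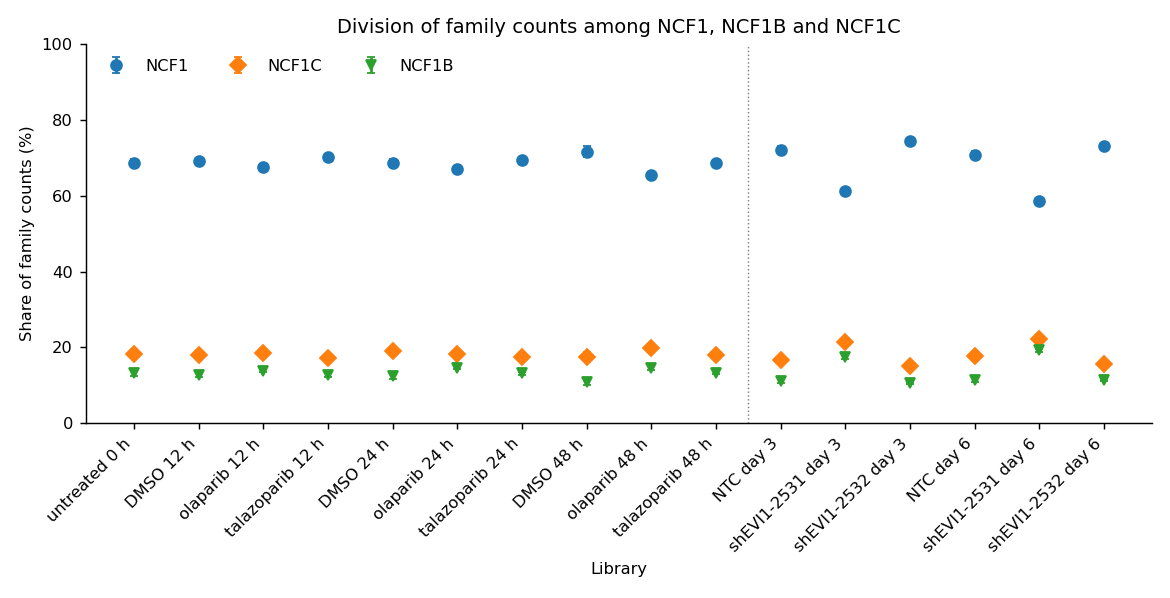
Share of the summed NCF1, NCF1B and NCF1C counts that fell on each copy, in percent, in the 16 libraries, with exact binomial 95% intervals that cover counting error only. NCF1 lies between 65.5% and 74.3% in all libraries other than those of shEVI1-2531, where it lies at 61.2% and 58.7%.

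Levels can be compared between the coding members only per length. Per kilobase of the principal transcript in GENCODE 29, CYBA was highest in the untreated library with 412.1 CPM per kilobase, followed by RAC2 (270.9), NCF4 (227.3), NCF1 (59.11) and CYBB (51.7). In DMSO at 48 h, CYBB (52.78 CPM per kilobase) and NCF1 (31.84) were again the lowest. They reached 252.3 and 333.5 CPM per kilobase with talazoparib at 48 h, against 1105 for CYBA, 490.5 for NCF4 and 475.2 for RAC2. By these counts, CYBB and NCF1 were the coding members with the lowest level in the control cells and the highest fold changes with PARPi. With shEVI1-2532 on day 6, NCF1 (337.1 CPM per kilobase) and NCF4 (328.2) were close, and CYBB (137.9) was the lowest. These orders take all counts of a gene as stemming from 1 transcript, and without replicates no spread can be set beside them. The place of NCF1 is uncertain in addition, since 64.5% of its 100-base stretches also occur in NCF1B or NCF1C. Its counts may be too low or too high, depending on how such reads were treated.

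Among further partners of the oxidase, RAP1A, a GTPase that copurifies with the flavocytochrome, rose in 3 tests, those of the slope and of each shRNA alone. Its slope in PARPi was 0.41 (SE 0.13, adjusted p = 0.0336 in edgeR), and it rose by 1.13 (0.13, 3.42e-05) with shEVI1-2532 and by 0.70 (0.13, 0.00309) with shEVI1-2531. The other Rac GTPases went both ways with shEVI1-2532, where RAC1 rose by 0.61 (SE 0.12, adjusted p = 0.00203 in edgeR) and RAC3 had −1.24 (0.21, 0.000539). Neither RAC1 nor RAC3 passed for the slope or with shEVI1-2531. CYBC1, the chaperone of the flavocytochrome, did not pass in any of these 3 tests. RAP1A, RAC1, RAC3 and CYBC1 all failed to pass for the mean PARPi effect and for both shRNAs as 1 group. RAP1A had 0.46 (SE 0.16, adjusted p = 0.0856 in edgeR) and 0.93 (0.21, 0.0773) there. The median log2 value over all genes was −0.00 for the slope, 0.00 for shEVI1-2532 and 0.01 for shEVI1-2531. As a background for the counts in this and the following lists, 8.51% of all genes passed with a positive slope and 8.03% with a negative one. With shEVI1-2532, 21.2% of all genes rose and 19.9% fell, and with shEVI1-2531 9.49% rose and 7.9% fell. The mean PARPi effect was higher for 2.93% and lower for 1.06% of all genes. For both shRNAs as 1 group, 0.849% rose and 0.806% fell.

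Other NADPH oxidases had few counts. Of 10 genes of the NOX and DUOX enzymes and their organizers, 3 had enough counts to be tested (NOX1, DUOX1 and NOXA1), and none passed in these 3 tests.

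Receptors that trigger the oxidase rose in large part. Of 11 tested in PARPi, 10 had a rising effect and none a falling one, with FPR1, the receptor for formyl peptides, at a slope of 1.81 (SE 0.15, adjusted p = 8.42e-28 in edgeR), ITGAM, the CD11b chain of complement receptor 3, at 1.12 (0.14, 3.32e-14) and FPR2 at 1.06 (0.13, 2.75e-13). FPR1 had 4.327, 4.023 and 3.016 CPM in DMSO and reached 54.59 CPM with olaparib and 58.82 CPM with talazoparib at 48 h. With shEVI1-2532 all 12 rose, among them ITGAM by 3.27 (SE 0.14, adjusted p = 7.01e-08 in edgeR) and FCGR2A, an Fc receptor for IgG, by 2.52 (0.15, 3.5e-07). With shEVI1-2531, 7 of 12 rose, FPR1 by 2.77 (SE 0.33, adjusted p = 0.000187 in edgeR). Their median log2 value was 1.02, 2.52 and 0.98 for the slope, shEVI1-2532 and shEVI1-2531. Far fewer receptors passed for the mean PARPi effect (1 of 11 rose) and for both shRNAs as 1 group (2 of 12 rose).

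Kinases and exchange factors that activate the oxidase rose in part. Of 14, 5 had a positive slope, with PRKCA, a protein kinase C that phosphorylates NCF1, at 0.82 (SE 0.14, adjusted p = 4.11e-07 in edgeR) and the p38 kinase MAPK14 at 0.52 (0.13, 0.00223). With shEVI1-2532, 10 rose and 1 fell, PRKCA by 2.40 (SE 0.20, adjusted p = 2.97e-06 in edgeR) and VAV3, a Rac exchange factor, with a value of −1.84 (0.16, 4.19e-06). With shEVI1-2531, 5 rose and 1 fell, which was again VAV3 (−0.69, SE 0.16, adjusted p = 0.00979 in edgeR). The median of this list was 0.20, 0.62 and 0.20 for the slope and the shRNAs in the same order. In the tests of the mean PARPi effect and of both shRNAs as 1 group, 0 of the 14 passed.

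Genes that balance charge or handle the oxidants went both ways. Of 12 tested, 3 had a positive slope, among them HVCN1, the proton channel that keeps the oxidase running, with 0.79 (SE 0.14, adjusted p = 3.49e-06 in edgeR), and GPX1 with 0.54 (0.14, 0.00485). MPO, the granule enzyme that turns hydrogen peroxide into hypochlorous acid, had a negative slope of −0.85 (SE 0.14, adjusted p = 2.55e-09 in edgeR). It had 1314, 1887 and 2453 CPM in DMSO and 1445, 1264 and 603.4 CPM with talazoparib, so its controls climbed while the treated libraries fell. With shEVI1-2532, 7 rose and 2 fell: SOD1, the cytosolic superoxide dismutase, had −2.21 (SE 0.14, adjusted p = 6.58e-07 in edgeR) and PRDX1 −0.88 (0.14, 0.000314). With shEVI1-2531, 3 rose and PRDX1 fell (−0.72, SE 0.14, adjusted p = 0.00379 in edgeR). The medians were 0.22, 0.42 and 0.27. In the tests of the mean PARPi effect and of both shRNAs as 1 group, 0 of the 12 passed.

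Of 12 transcription factors known for acting on oxidase genes, 4 had a positive slope (CEBPE, IRF8, SPI1 and GATA1) and HOXA9 a negative one. SPI1, which encodes PU.1, had 293.8, 260.2 and 191.7 CPM in DMSO, 333.4, 297.2 and 337.1 CPM with olaparib and 324.1, 309.5 and 457.6 CPM with talazoparib. Its slope was 0.44 (SE 0.13, adjusted p = 0.0108 in edgeR), and like that of the NCF1 family it came with a falling control. SPI1 rose by 1.00 (0.13, adjusted p = 6.21e-05 in edgeR) with shEVI1-2532 and by 0.56 (0.12, 0.00881) with shEVI1-2531. CEBPE, a factor of late granulocyte maturation, had a slope of 1.05 (SE 0.14, adjusted p = 2.74e-12 in edgeR). IRF8, which acts with PU.1 on CYBB, rose by 1.13 (SE 0.25, adjusted p = 0.00813 in edgeR) with shEVI1-2531 and had 0.33 (0.25, adjusted p = 0.32) with shEVI1-2532. HOXA9 fell with both shRNAs, to a value of −1.03 (SE 0.18, adjusted p = 0.00059 in edgeR) with shEVI1-2532 and of −1.67 (0.18, 9.54e-05) with shEVI1-2531. Of these 12, 4 rose and 2 fell with shEVI1-2532, where 21.2% of all genes rose and 19.9% fell. With shEVI1-2531, 3 rose and 2 fell, where 9.49% of all genes rose and 7.9% fell. The medians were 0.17 and 0.10 (slope 0.15). For the mean PARPi effect 2 of the 12 rose and 0 fell, and for both shRNAs as 1 group 0 passed.

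Across all 16 libraries, the genes whose log2 CPM followed CYBB most closely, after centering in each experiment and among 8589 candidates, were LACTB (Pearson r = 0.97), FPR2 (0.97), ZBTB18 (0.97), ADGRE3 (0.96) and SLC39A11 (0.96). For the NCF1 family sum they were ITGB7 (0.97), DENND6B (0.97), PADI4 (0.97), SIGLEC14 (0.96) and SEMA6B (0.96). NCF4 was followed by MMP25 (0.98), POLD4 (0.97), TPRG1L (0.96) and CD53 (0.96). No gene was among the closest for more than 1 of these 3. These values describe libraries that share treatments and scaling, and carry no p-value.

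Most monocyte markers rose as well. The summed level of 12 monocyte markers was 1068 to 1417 CPM in DMSO and, with 11 or 12 of them above the floor, rose to 9825 CPM with olaparib and 16460 CPM with talazoparib at 48 h. It was 1072 to 1517 CPM with NTC, 2429 to 3074 CPM with shEVI1-2531 and 9622 to 9833 CPM with shEVI1-2532. Of these 12, 8 had a positive slope, 10 rose with shEVI1-2532 and 7 with shEVI1-2531, against 8.51%, 21.2% and 9.49% of all genes. For the mean PARPi effect 1 of the 12 rose, and 1 for both shRNAs as 1 group, against 2.93% and 0.849% of all genes. CYBB overlapped between both shRNAs, where the sum of this list did not. The sum of 11 neutrophil markers, most of which was MPO in DMSO, went the other way with PARPi at 24 and 48 h. It had 1505 to 2704 CPM in DMSO and 1191 to 1693 CPM with the inhibitors. Of 8 neutrophil markers tested in PARPi, however, 4 had a positive slope and 2 a negative one. The sum had 3015 to 3628 CPM with NTC against 3459 to 5272 CPM with the shRNAs. Of 9 tested there, 7 rose and 0 fell with shEVI1-2532, and 3 rose and 1 fell with shEVI1-2531. For the mean PARPi effect 1 of the 8 neutrophil markers rose and 0 fell, and for both shRNAs as 1 group 0 of the 9 passed. The 6 stem and progenitor markers had 426.5 to 562.6 CPM in DMSO, and with talazoparib 591.7 CPM at 12 h, 344.3 at 24 h and 147.4 at 48 h (olaparib 476.9, 345.9 and 239.3 CPM). They had 358.5 to 729.3 CPM with NTC, 128.7 to 138.3 CPM with shEVI1-2531 and 15.0 to 19.0 CPM with shEVI1-2532. FCGR1A, FCGR3B, MPO and SPI1 stand both in a marker list and in a list of oxidase genes. The part of maturation in the changes of the members was not tested.

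Markers of other cells were mostly low. Red cell markers summed to at most 0.189 CPM, T cell markers to 3.65 to 16.3 CPM and B cell markers to 11.7 to 24.5 CPM, with MS4A1 and PAX5 not above the floor. Megakaryocyte markers moved with PARPi, from 105.6 CPM in DMSO to 239.4 with olaparib and 275.6 with talazoparib at 48 h, and went the other way with shEVI1-2532 (36.0 and 59.1 CPM against 78.7 and 158.4 with NTC). With shEVI1-2531 they had 122.3 and 141.2 CPM, above NTC on day 3 and below it on day 6. Epithelial markers, of which KRT8 and KRT18 were above the floor, had 9.90 and 14.1 CPM with NTC, 16.8 and 18.1 with shEVI1-2531 and 34.0 and 34.4 with shEVI1-2532, and at 48 h 13.9 CPM in DMSO, 22.2 with olaparib and 26.0 with talazoparib. The part of these cells in the changes of the members was not tested. Markers of the 5637 line, whose medium fed the cells, summed to 1.32 to 3.14 CPM in the PARPi experiment. After knockdown they had 6.39 and 11.6 CPM with NTC and 0.961 to 2.15 CPM with the shRNAs. KRT7, the only 1 of these 4 markers tested, was lower with shEVI1-2531 (−3.2, SE 0.34, adjusted p = 8.92e-05 in edgeR) and with shEVI1-2532 (−2.4, 0.33, 0.000136). The cause of this was not tested.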

How the data were processed

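The 16 MUTZ-3 RNA-Seq libraries were analysed, 10 of the PARPi and 6 of the knockdown experiment, grouped by the submitters' labels. The authors deposited a table for each library, with raw counts and TPM of every gene. Poly(A) RNA was sequenced in stranded paired-end libraries, and the submitters' processing notes name STAR, Picard, featureCounts and hg38. Versions, the annotation, the strand setting and the handling of reads with several matches are not given in the sources used here. The deposited TPM follow from the counts over the whole span of a gene, introns included, as checked in all 16 files, and were not used further. For shEVI1-2531, the identity of the libraries rests on the sample labels, since the file names carry another shRNA number.

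Depth was 55999673 to 72681943 counts (PARPi) and 95523038 to 120716213 (knockdown). Genes that reached 10 counts in 3 or more of 9 PARPi libraries, the untreated one left out, or in 2 or more of 6 knockdown libraries were fitted with edgeR 4.0.16 in R 4.3.3 (TMM, quasi-likelihood test, hour or day as a factor), with Benjamini-Hochberg adjustment over all genes and a threshold of 0.05. Intervals of ratios and shares are exact binomial at 95%. Intervals of fitted values are 95% intervals of the model.

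The members and gene lists were chosen with earlier results of these data known. Named in each list were mainly the genes with the smallest p for shEVI1-2532 or the slope. Genes most alike needed a mean log2 CPM above 3 (prior count 2) in both experiments. Alternatives were DESeq2 1.42.0, other normalizations, filters and thresholds, no hour or day term, and each library or hour left out. The steps were tested on simulated data. Transcripts came from GENCODE 29 and promoters from RefSeq. Proteins were not analysed here. Some genes of the lists are not reported here. Figures were drawn with matplotlib 3.10.9.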

Additional observations from a re-analysis of the deposited data

Results flagged for a closer look

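The effect of PARPi differed between time points in the direct test for all 7 members, against 16.5% of all genes. Of the 16 alternatives run for the slope, NCF1, NCF1B and NCF1C kept their call in 16, CYBB in 14, CYBA and NCF4 in 13 and RAC2 in 7. The mean slope for each doubling of the hours, on the log2 scale, was 1.11 for NCF1, 1.30 for NCF1B, 1.21 for NCF1C, 1.15 for the NCF1 family sum, 0.90 for CYBB, 0.64 for CYBA, 0.53 for NCF4 and 0.42 for RAC2 in edgeR.

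The effect of knockdown differed between the shRNAs in the direct test for 5 of 7 members and the sum, against 24.2% of all genes. The value with shEVI1-2532 exceeded that with shEVI1-2531 by 1.38 for RAC2, 1.23 for NCF1, 0.93 for the NCF1 family sum, 0.54 for NCF4, 0.51 for CYBA and 0.43 for NCF1C on the log2 scale in edgeR. No group had the 4 samples that a search for single outlying samples needs.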

How the results depend on the processing

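With 1 library for each condition, all p-values rest on hours or days in place of replicates. Of the counts of members called, 57 moved by more than 1.5 times and 95 did not under the alternatives run. Counts with an hour or a library left out are given without the share of all genes that passed in the same fit. They describe the dependence on single libraries and are no result about the members. Those for shEVI1-2532 (7 of 7) and shEVI1-2531 (5 of 7) did not move that far under any of them.

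For the mean PARPi effect, 1 member was called, against 6 with DESeq2 (20.0% of all genes called), 6 with no filter on low counts (11.3%), 3 with upper quartile normalization (5.07%), 2 with library totals only, and 0 at a threshold of 0.01, with at least 50 counts or with no hour term. With an hour or a library left out, the count ranged from 0 to 6. For olaparib, 0 members were called, against 3 with DESeq2 (3.9% of all genes) and 4 with no filter (3.02%), and from 0 to 4 with an hour or a library left out (4 without DMSO at 12 h, 3 without talazoparib at 48 h and 2 without DMSO at 48 h). For talazoparib, 1 was called, against 6 with DESeq2 (21.7% of all genes), 6 with no filter (11.7%), and 0 at 0.01, with library totals only, with at least 50 counts or with no hour term, and from 0 to 6 with an hour or a library left out (6 without DMSO or talazoparib at 12 h, 4 without DMSO at 48 h and 0 without any of the other 6 libraries). For the slope, 7 were called, against 3 (NCF1, NCF1B and NCF1C) with a log2 change beyond 1 required as well, and from 4 to 7 with a library left out. For the difference between the shRNAs, 5 were called, against 3 at 0.01, 2 with a log2 change beyond 1 required, 3 with library totals only and 2 with no day term, and from 2 to 5 with a library left out. For both shRNAs as 1 group, 3 were called, against 5 with DESeq2 (13.1% of all genes), 6 with no filter (8.46%) and 0 at 0.01, and from 0 to 4 with a library left out.

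The NCF1 family sum lost its call for the mean PARPi effect at 0.01 (1.78), with at least 50 counts (1.79, adjusted p = 0.0565 in edgeR) and with no hour term (1.75, 0.151), and it ranged from 1.24 to 2.37 with an hour or a library left out. Its difference between the shRNAs, 0.93, lost its call where a log2 change beyond 1 was required, and with no day term (0.92, adjusted p = 0.0842 in edgeR). For both shRNAs as 1 group it lost its call at 0.01 (2.56), and ranged from 2.29 to 2.73 with a library left out. The cause of these changes was not tested.

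Of the single values that were called or whose interval excluded no change, 5 changed sign. They were the slope of CYBA without DMSO at 48 h (−0.03, within a range of −0.03 to 1.30 over the libraries left out), the ratio of RAC2 with shEVI1-2531 on day 6 with library totals only (−0.029), and, against the mean of the controls, the ratios of CYBA with olaparib at 12 h (−0.055) and 24 h (0.22) and of RAC2 with shEVI1-2531 on day 3 (−0.056). Values that were not called also changed sign, among them the difference between the inhibitors for 6 members and the sum, CYBA with olaparib (−0.01 without DMSO at 48 h), NCF4 with shEVI1-2531 (−0.07 with library totals only) and the difference between the shRNAs for CYBB (0.01 without shEVI1-2532 on day 3). Of 80 ratios, 78 had an interval that excluded no change, 78 with library totals only and 80 against mean controls.

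Scaling to library totals in place of TMM moved the median log2 value of all genes by −0.12 for the slope, −0.30 for shEVI1-2532, −0.17 for shEVI1-2531, −0.13 for their difference and −0.23 for both as 1 group. The share of higher among all called genes then went from 51.5% to 30.5%, from 51.5% to 28.4%, from 54.6% to 31.6%, from 50.4% to 33.7% and from 51.3% to 31.6%, in the same order. For talazoparib this share was 70.6%, against 90.5% with library totals and 52.5% with DESeq2. For the mean PARPi effect it was 73.4%, against 53.6% with DESeq2, and for olaparib 100%, against 87.2%. The labels give no replicate numbers. No paired analysis was possible because each group holds 1 library and the hour or day is already a term of the model.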
